A study of Mus musculus with 15 samples.

Results

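The comparison set brains of Tbx1 heterozygous mice given vitamin B12 against brains of Tbx1 heterozygous mice given saline, and asked which transcripts differ with the vitamin when the genotype is held the same. It used 10 of the 15 libraries of the series, 5 on each side, and was made across all genes with enough counts. Animals of both groups were Tbx1+/-, that is, with 1 mutant copy of Tbx1. The Het_B12 group received vitamin B12 at 20 mg/kg in phosphate-buffered saline (PBS), and the Het_PBS group received PBS alone. Injections were intraperitoneal, 2 per week for 4 weeks, in mice whose age is given as 4 weeks. RNA was read by QuantSeq, which sequences the 3′ ends of polyadenylated transcripts, so that a count stands for a transcript and not for its length. The other 5 libraries came from wild-type mice given PBS (WT_PBS), and their values are shown beside the comparison. Vitamin-treated wild types were not analysed here. The mutant allele is not described in the sources used here. The labels name the tissue both as brain and as brain hemisphere. They carry a number for each library, which differs between libraries except that Het_PBS 5 and Het_B12 1 share 1 number. The labels do not say that these numbers stand for animals. A p-value here therefore reflects the spread among libraries, which may be in part technical.

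Vitamin B12, or cobalamin, is carried in blood by transcobalamin (Tcn2), enters cells through the receptor Cd320 and serves as cofactor for a pair of enzymes. Methionine synthase (Mtr), kept active by Mtrr, uses it to make methionine, from which the methyl donor of DNA, RNA and histone methylation is formed. Methylmalonyl-CoA mutase (Mut) uses it in mitochondria to feed the carbon of propionate and of some amino acids into the tricarboxylic acid cycle. Tbx1 encodes a T-box transcription factor of the pharyngeal arches and of vessels, and lies in the region that matches the human 22q11.2 deletion.

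The 10 libraries held from 1683258 (Het_PBS 5) to 2746122 (Het_B12 5) counts, so that a floor of 3 counts stood at 1.09 to 1.78 CPM (counts scaled to library size). All 20 pan-neuronal markers had enough reads to be tested, and they summed to 11141 to 12615 CPM in Het_PBS and 11739.8 to 12774 CPM in Het_B12. Tbx1 had 3 reads in Het_PBS, all in Het_PBS 1, and 1 read in Het_B12, in Het_B12 4, which is at or under the floor and checks no label. On the first principal component of the 10 heterozygous libraries, which held 23.6% of the variance, Het_PBS lay at -38.8 to -13.5 and Het_B12 at 15.99 to 27.6. Het_PBS 5 stood apart on the second component (15.7%), at 38.7. Genes whose levels followed the first component most closely were Srrm4, a neuronal splicing regulator (Pearson's r 0.984 across the 10 libraries), and Nedd4l, a ubiquitin ligase (0.979). On the opposite side were Ctss (-0.982), Hsp90aa1 (-0.979) and mt-Co1 (-0.979).

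Several fractions of the libraries moved with the group. Gm42418, where reads of ribosomal RNA gather, held 8.52% ± 1.73 of all counts in Het_PBS and 5.29% ± 1.25 in Het_B12 (SD, n = 5; exact two-sided permutation p = 0.00794, adjusted over 6 such measures 0.0159). Cytosolic ribosomal protein genes took 2.98% ± 0.333 and 2.26% ± 0.0678, and 4 gene families that brain cells keep mostly silent took 0.0129% ± 0.00227 and 0.00618% ± 0.000782 together. Both had an exact permutation p of 0.00794, the smallest that 5 against 5 libraries allow. Mitochondrially encoded genes took 9.75% ± 1.33 and 8.47% ± 0.688 (exact permutation p = 0.103). Among the silent families, which were not tested singly, receptors of smell, pheromones and trace amines summed to 84.3 ± 18.0 CPM in Het_PBS and 17.6 ± 6.32 CPM in Het_B12, and the ranges were separate. Genes with symbol prefixes of placental and spermatogenic clusters summed to 41.4 ± 6.69 and 34.3 ± 5.37 CPM. Keratin-associated and defensin genes summed to 6.83 ± 2.11 and 6.49 ± 3.31 CPM, and ranges overlapped for both sets. All 4 families were set by symbol prefix alone, which can also take in unrelated genes that brain cells express. Of the 84 genes with placental and spermatogenic prefixes, 5 had enough reads to be tested. That sum, which is part of the share of the 4 families, therefore need not be placental or germline reads. The part of these fractions in the gene differences described here was not tested.

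Of 11718 genes tested, 851 (7.26%) passed edgeR's quasi-likelihood test at an adjusted p under 0.05. In Het_B12, 407 of them (3.47% of genes tested) were higher and 444 (3.79%) were lower. The ranges of the 5 libraries did not overlap for 280 of the higher and 317 of the lower genes, and over all genes tested they did not overlap for 7.83% (3.75% higher, 4.07% lower). By size, 101 genes rose and 45 fell by more than 2-fold, while 141 rose and 251 fell by less than 1.5-fold. The median log2 fold change was 0.70 among the higher genes, -0.56 among the lower genes and 0.01 over all genes tested. Where 2 values stand in brackets after a gene, they are its log2 fold change with standard error and its edgeR adjusted p, and CPM are given as mean ± SD of 5 libraries unless each library is listed.

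Mroh2a, of the Maestro family of HEAT-repeat genes, had the smallest p-value. It stood at 22.5, 32.3, 18.98, 14.9 and 26.9 in Het_PBS 1 to 5, against 4.09, 0, 0, 0 and 0.349 CPM in Het_B12 1 to 5 (log2 fold change -4.83 ± 0.48, edgeR adjusted p = 3.31e-08). It had no reads in 3 Het_B12 libraries, and the wild types were at 52.6, 32.4, 80.1, 35.9 and 48.9 CPM. Near the floor the fitted fold change depends on few reads: it was -7.33 without Het_B12 1. Summed receptors of smell, pheromones and trace amines, among the silent families, were lowest in Het_B12 too. They stood at 59.2 to 141 CPM in WT_PBS, 65.2 to 108 in Het_PBS and 12.9 to 27.7 in Het_B12. Het_B12 1 and Het_B12 5, the libraries of their group with Mroh2a reads, held the most of these receptors, at 27.7 and 19.9 CPM. Whether Mroh2a moves with that fraction was not tested.

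Transcript length and level are given for both sets, without a test. Length was that of the longest annotated transcript of each gene, which need not be the one expressed. Its median was 5281 bases among the higher genes, 2104 bases among the lower genes and 3604 bases over all genes tested. When tested genes were cut into 5 equal bins by length, 15 rose and 218 fell in the shortest bin, and 186 rose and 25 fell in the longest. Median levels over the heterozygous libraries were 48.4 CPM for higher genes, 119 CPM for lower genes and 25.3 CPM for all genes tested. With an offset for transcript length in the model, 648 genes passed, 291 higher and 357 lower, of which 550 were among the 851. In that fit 43 genes rose and 86 fell in the shortest bin, and 82 rose and 65 fell in the longest.

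**Figure D1:**
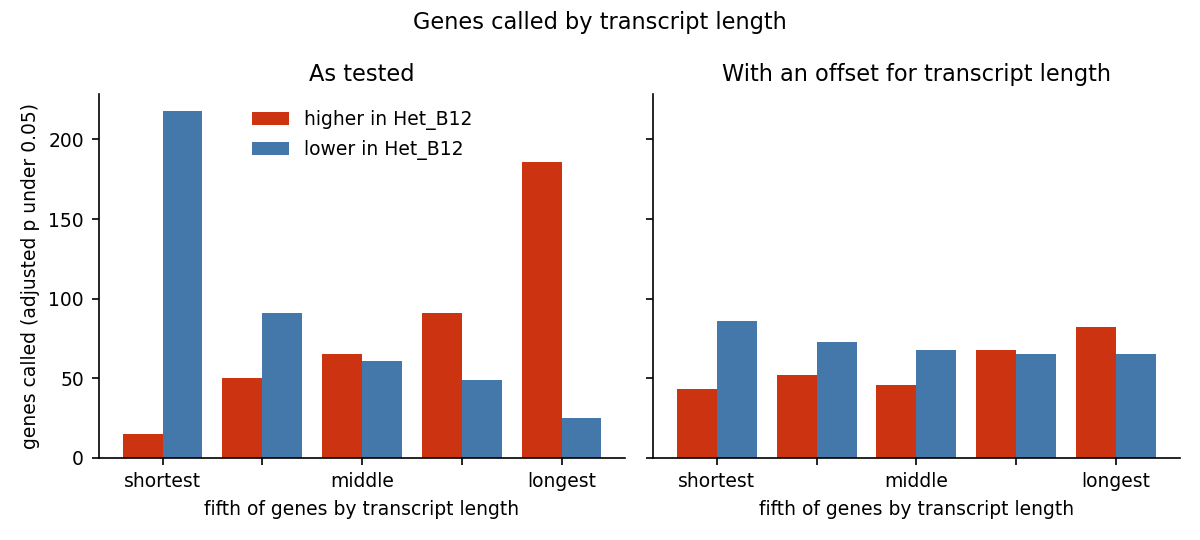
Number of genes called higher (red) or lower (blue) in Het_B12 than in Het_PBS, in 5 equal bins of tested genes from the shortest to the longest transcript, as tested (left) and with an offset for transcript length (right). As tested, 218 genes of the shortest bin were lower and 186 of the longest bin were higher; with the offset these counts were 86 and 82.

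The wild-type libraries, which entered the fit through the shared spread and not through the contrast, did not all lie with Het_PBS. For each called gene, each WT_PBS library was placed against the nearest Het_B12 library. WT_PBS 3 reached or passed it for 253 (62.2%) of the 407 higher genes and for 216 (48.6%) of the 444 lower genes. The other 4 WT_PBS libraries did so for 15.7% to 28.5% of the higher and 10.4% to 28.2% of the lower genes. For 99 higher and 156 lower genes no WT_PBS library reached the Het_B12 range, and for 109 and 115 genes WT_PBS 3 alone did. On the first component WT_PBS 3 projected to 7.31 and the other wild types to between -14.3 and -7.88. WT_PBS 3 received saline per its label. Why its levels lie there was not tested, and its level is given beside the groups it touches. Leaving it out of the fit raised the count of called genes to 1050, among them all 851.

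**Figure D2:**
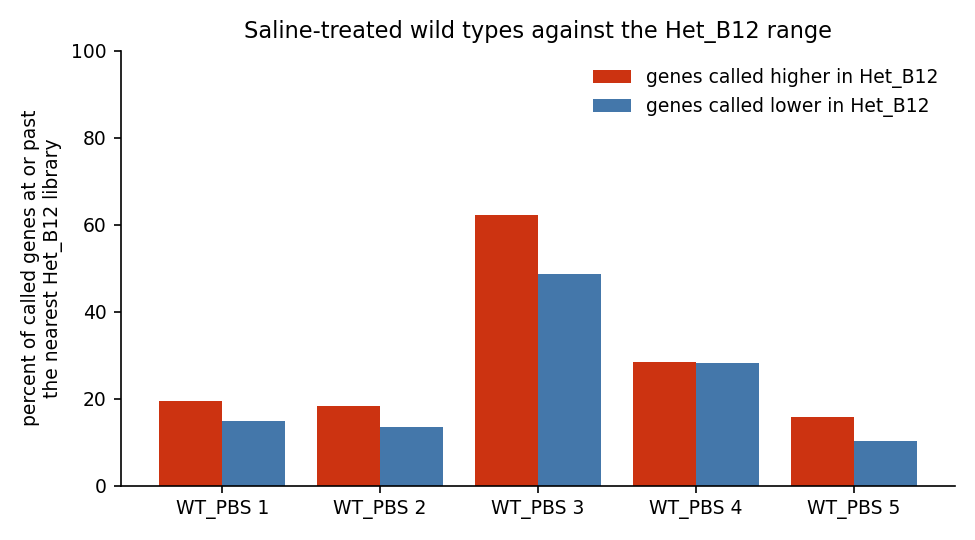
Share of the genes called higher (red) or lower (blue) in Het_B12 for which each saline-treated wild-type library lay at or past the nearest Het_B12 library, in percent. WT_PBS 3 stands at 62.2% and 48.6%, and the other 4 libraries at 28.5% or less.

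Gene lists of cell types and pathways differed widely in how many members were called. Against a background of 3.47% higher and 3.79% lower, the shares called higher were largest among nuclear and imprinted long non-coding RNAs (8 of 17 tested, 47.1%), cerebellar markers (6 of 20), endothelial markers (7 of 24) and splicing regulators (18 of 64). The shares called lower were largest among astrocyte markers (17 of 29, 58.6%), S100 genes (7 of 12), small-subunit ribosomal proteins (19 of 33), erythroid genes (5 of 9) and large-subunit ribosomal proteins (26 of 47). Lists for the direct use of vitamin B12 had shares near the background.

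**Figure D3:**
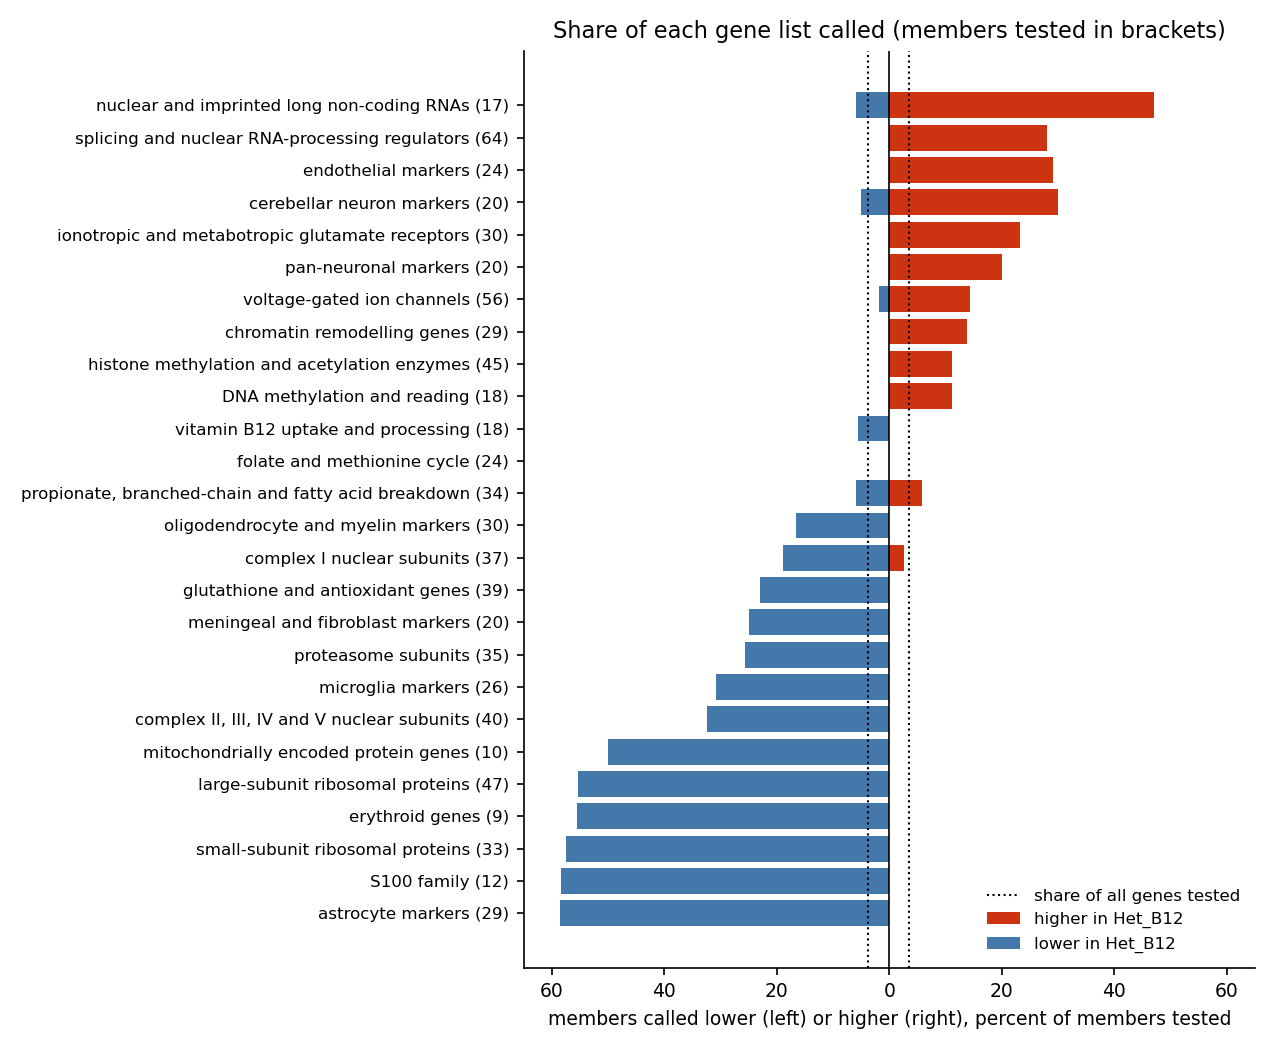
Percent of tested members called lower (blue, left) or higher (red, right) in Het_B12 for 26 gene lists, with the number of members tested in brackets and dotted lines at the share over all genes tested. Long non-coding RNAs reach 47.1% on the right and astrocyte markers 58.6% on the left.

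Among nuclear and imprinted long non-coding RNAs 8 members were called higher, 1 was lower, and the median log2 fold change of the 17 tested was 0.43, against 0.01 for all genes. Meg3 and Mirg are maternally expressed RNAs of the imprinted Dlk1-Dio3 domain, and their transcripts host microRNAs. RefSeq places 3 mature microRNAs inside Meg3 and 26 inside Mirg, and a few are shown to identify what these hosts carry. Sequences are 5′ to 3′ from RefSeq (GRCm38.p6, plus strand), with the seed, bases 2 to 8, in capitals:
mmu-miR-770-5p: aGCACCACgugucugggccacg
mmu-miR-382-5p: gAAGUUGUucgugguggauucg
mmu-miR-134-5p: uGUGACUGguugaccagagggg
mmu-miR-453: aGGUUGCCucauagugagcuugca
mmu-miR-496a-5p: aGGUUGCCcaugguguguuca
The first lies in Meg3 (chr12:109563710-109563731) and the others in Mirg (chr12:109733781-109733802, chr12:109734145-109734166, chr12:109735669-109735692 and chr12:109739132-109739152). The last pair shares the seed GGUUGCC. The counts here are of the polyadenylated hosts, not of the mature microRNAs.

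Meg3 (ENSMUSG00000021268, GRCm38 chromosome 12, 109541001 to 109571726, plus strand) stood at 4129, 3465, 3991, 2876 and 3102 in Het_PBS 1 to 5, against 11823, 8614, 7067, 9992 and 9381 CPM in Het_B12 1 to 5. No Het_B12 library came near the Het_PBS range, and the log2 fold change was 1.42 ± 0.20 SE (edgeR adjusted p = 2.4e-05). Mirg, downstream of it (chromosome 12, 109729764 to 109749460, plus strand), stood at 14.04, 9.56, 17.7, 18.6 and 20.3 in Het_PBS 1 to 5, against 59.1, 42.6, 43.5, 37.7 and 55.5 CPM in Het_B12 1 to 5, a log2 fold change of 1.58 ± 0.24 (edgeR adjusted p = 5.53e-05). The wild types were at 5112, 2921, 11653, 4313 and 3891 CPM for Meg3 in WT_PBS 1 to 5, so that WT_PBS 3 lay within the Het_B12 range. Kcnq1ot1, the paternally expressed antisense RNA of the Kcnq1 domain on chromosome 7, stood at 224, 206, 195, 183 and 221 in Het_PBS 1 to 5, against 487, 419.9, 379, 407 and 433 CPM in Het_B12 1 to 5 (1.05 ± 0.13, 3.87e-06), and its log2 fold change was 0.45 with the length offset (adjusted p = 0.0139). No wild type reached its Het_B12 range, and WT_PBS 3 was at 356 CPM.

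Snhg11, a neuronal small nucleolar RNA host gene, stood at 734, 751, 1031, 738 and 625 in Het_PBS 1 to 5, against 2704, 1977, 1826, 2638 and 2152 CPM in Het_B12 1 to 5 (log2 fold change 1.54 ± 0.23, edgeR adjusted p = 3.73e-05). Miat, an RNA of nuclear bodies in neurons, stood at 31.4, 27.5, 46.6, 29.7 and 28.7 in Het_PBS 1 to 5, against 169, 98.2, 78.4, 106 and 112 CPM in Het_B12 1 to 5 (1.77 ± 0.29, 0.000105). Both had separate ranges, and Het_B12 1 was the highest library for each. Mir124a-1hg, host of the neuronal microRNA miR-124, rose from 30.9 ± 5.28 to 76.02 ± 15.4 CPM (1.29 ± 0.20, 6.3e-05). Neat1, the scaffold of paraspeckles, rose from 44.5 ± 8.04 to 102 ± 31.5 CPM (1.19 ± 0.21, 0.000297). Malat1, the abundant RNA of nuclear speckles, rose from 4748 ± 393 to 9076 ± 1913 CPM (0.93 ± 0.16, 0.000289), and WT_PBS 3 was at 10106 CPM. Pantr1 was the member that fell, from 107 ± 11.7 to 72.5 ± 8.60 CPM (-0.56 ± 0.13, 0.00465); it and Malat1 are named outside the rule for genes, after their values were seen. The count of 8 was the same with the length offset, in each fit without 1 library and without Het_PBS 5 and Het_B12 1 together. For 7 of the 8, WT_PBS 3 reached the Het_B12 range.

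**Figure D4:**
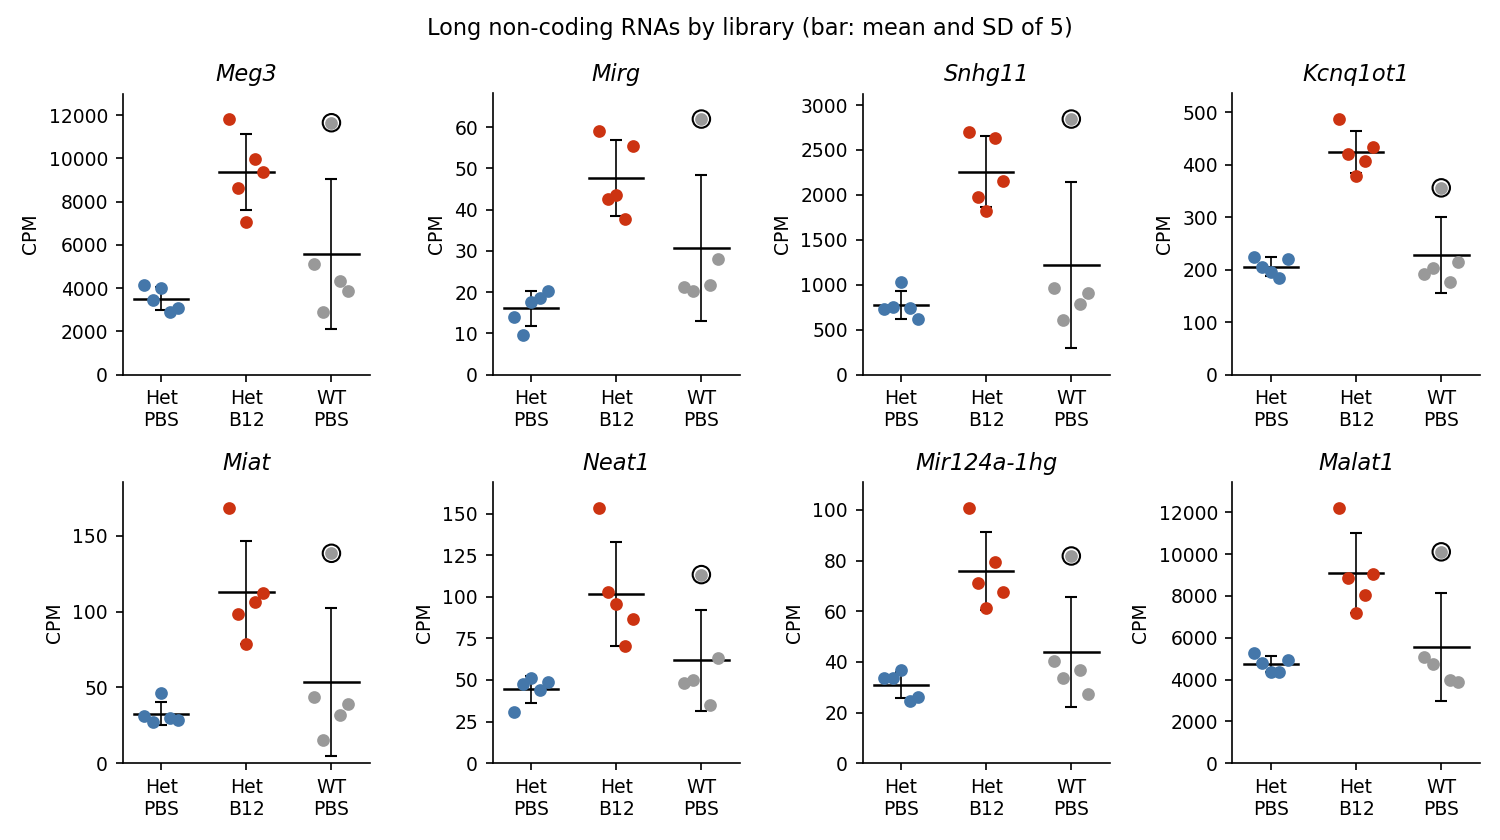
Level in CPM of 8 long non-coding RNAs in each library of Het_PBS (blue), Het_B12 (red) and WT_PBS (grey, WT_PBS 3 ringed), with bars at the mean and SD of 5. All 8 are higher in the 5 Het_B12 libraries than in any Het_PBS library, as with Meg3 at 7067 to 11823 against 2876 to 4129 CPM.

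Of 64 tested regulators of splicing and nuclear RNA processing, 18 rose and 0 fell, 56 lay above 0, and the median log2 fold change was 0.28. Srrm2, a large scaffold protein of nuclear speckles, stood at 389, 444, 425, 407 and 427 in Het_PBS 1 to 5, against 799, 690.1, 650.2, 741 and 683 CPM in Het_B12 1 to 5 (log2 fold change 0.77 ± 0.12, edgeR adjusted p = 5.28e-05). The groups were separate. It shares exon sequence with Elob on the opposite strand, so the count is uncertain without a stated strand setting. Snrnp70, a gene outside the list that encodes the U1-70K protein of the U1 particle, rose from 105 ± 16.95 to 232 ± 42.98 CPM (1.14 ± 0.17, 4.91e-05). Pnisr (0.94 ± 0.16, 0.00017), Nktr (0.88 ± 0.15, 0.000224) and Tra2a, a splicing activator (0.77 ± 0.15, 0.000869), also rose. The count of 18 was 11 without Het_B12 4, 11 without Het_PBS 5 and Het_B12 1 together, 10 without Het_PBS 1 and Het_PBS 3 together and 14 with the length offset. For 16 of the 18, WT_PBS 3 reached the Het_B12 range, with Srrm2 at 680.2 CPM.

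Among 45 histone methylation and acetylation enzymes 5 rose and 0 fell, with a median log2 fold change of 0.19. The histone H3 lysine methyltransferase genes Kmt2a (from 207 ± 20.1 to 329 ± 36.1 CPM; 0.66 ± 0.12, 0.000616) and Dot1l (from 30.6 ± 8.05 to 61.4 ± 9.65 CPM; 1.00 ± 0.19, 0.000858) were among them. WT_PBS 3 was in or past the Het_B12 range for all 5. Kmt2a was at 0.42 with the length offset. The count was 2 without Het_B12 1, 2 without Het_PBS 5 and Het_B12 1 together and 3 with the length offset, and with a mean count of at least 50 it was 8. Among 29 chromatin remodelling genes 4 rose, with Chd7 at 0.77 ± 0.14 and Bptf, a subunit of the NURF complex, at 0.41 ± 0.11. That count was 1 without Het_B12 1 or without Het_PBS 5 and Het_B12 1 together, 2 without Het_B12 2 or Het_B12 4, 1 with the length offset and 7 with a mean count of at least 50. Bptf was not called without Het_B12 1 (adjusted p = 0.0677), without Het_PBS 5 and Het_B12 1 together (0.0727), without Het_PBS 1 and Het_PBS 3 together (0.106) or with the length offset (0.185), where its log2 fold change was 0.23.

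DNA methylation takes its methyl groups from the cycle in which vitamin B12 acts. Of 18 genes that write, remove or read this mark, 2 rose and 0 fell, with a median log2 fold change of 0.23. That count was 0 with the length offset, 0 without Het_PBS 5 and Het_B12 1 together and 0 without Het_B12 4 or Het_B12 5. Dnmt3a, a de novo DNA methyltransferase gene, stood at 110.0, 94.8, 103, 85.5 and 88.5 in Het_PBS 1 to 5, against 124, 114, 115, 148 and 148 CPM in Het_B12 1 to 5 (log2 fold change 0.43 ± 0.12, edgeR adjusted p = 0.0238). The lowest Het_B12 library lay just above the highest Het_PBS library. It was not called without Het_PBS 4, Het_PBS 5, Het_B12 4 or Het_B12 5 (adjusted p up to 0.0832), without Het_PBS 5 and Het_B12 1 together (0.0751) and with the length offset (0.162). Mbd5, a methyl-CpG-binding domain gene, rose from 28.7 ± 3.96 to 41.8 ± 5.83 CPM (0.54 ± 0.16, 0.0369), a call absent from 6 of the 10 fits that left out a library, with adjusted p up to 0.103 without Het_B12 5. It was not called without Het_PBS 5 and Het_B12 1 together (0.113) or with the length offset (0.128) either. It overlaps Orc4 on the opposite strand.

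Genes of neuronal signalling rose in part. Of 56 voltage-gated ion channel genes 8 rose and 1 fell (median log2 fold change 0.12). Among those with the smallest p-values, 3 encode pore-forming subunits of calcium channels that drive transmitter release or shape firing. Cacna1a, of the P/Q-type channel, stood at 152, 201, 154, 128 and 102 in Het_PBS 1 to 5, against 346, 287, 286, 261 and 269.6 CPM in Het_B12 1 to 5 (log2 fold change 0.97 ± 0.14, edgeR adjusted p = 2.14e-05). Its lowest Het_B12 library, at 261 CPM, was above every Het_PBS and every WT_PBS library. Cacna1b, of the N-type channel, rose from 40.8 ± 7.17 to 70.6 ± 6.92 CPM (0.79 ± 0.16, 0.00154) and Cacna1e, of the R-type channel, from 125 ± 18.5 to 185 ± 16.4 CPM (0.57 ± 0.13, 0.00527). With the length offset Cacna1e was not called (0.0683). The sodium-activated potassium channel gene Kcnt1 rose from 17.1 ± 4.27 to 33.2 ± 5.08 CPM (0.97 ± 0.21, 0.00293).

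Glutamate receptor genes lay mostly above 0. Of 30 tested, 27 had a higher mean in Het_B12, 7 rose and 0 fell, and the median log2 fold change was 0.29. Cacng2, which encodes stargazin, an auxiliary subunit that brings AMPA receptors to synapses, stood at 158, 199.9, 183, 196 and 169.8 in Het_PBS 1 to 5, against 305, 336, 314, 256 and 283 CPM in Het_B12 1 to 5 (log2 fold change 0.72 ± 0.11, edgeR adjusted p = 7.87e-05). All 5 wild types, at 134, 172, 132, 170.1 and 186 CPM, lay below every Het_B12 library. Those at 134 and 132 CPM also lay below every Het_PBS library. The kainate receptor gene Grik5 (from 24.3 ± 4.19 to 47.1 ± 8.63 CPM; 0.94 ± 0.19, 0.00174) and the metabotropic receptor gene Grm4 (0.67 ± 0.15, 0.00297) rose too. The count of 7 was 4 without Het_PBS 4, Het_B12 4 or Het_B12 5 and 4 with the length offset.

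Of 43 presynaptic genes 3 rose, among them the priming factor gene Unc13b (1.07 ± 0.23, 0.00257) and Pclo, a scaffold of the active zone (0.49 ± 0.11, 0.00293), which was not called with the length offset (0.193). Of 40 postsynaptic genes 4 rose, among them the kinase gene Camk2g (0.59 ± 0.15, 0.0108). That count was 2 without Het_PBS 3, Het_PBS 5, Het_B12 1 or Het_B12 5, 2 with the length offset and 1 without Het_PBS 5 and Het_B12 1 together, where Camk2g was not called (0.0753). Without Het_PBS 1 and Het_PBS 3 together it was 1, again without Camk2g (0.0748).

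Pan-neuronal markers were called in 4 of 20 cases, all higher, with a median log2 fold change of 0.07, and 8 lay below 0. Ranges did not overlap for 3 that were higher and 2 that were lower, against 3.75% and 4.07% of all genes tested. DESeq2 and limma-voom each called 4 higher and 1 lower. Elavl3, a neuronal RNA-binding protein gene, was among the 4 called by edgeR (0.44 ± 0.10, 0.0056). That count of 4 was 2 without Het_PBS 4 or Het_B12 1 and 1 without Het_PBS 5 and Het_B12 1 together. Markers of neuron classes were counted apart. Of 20 cerebellar markers 6 rose, for example Cbln3, of granule cells (from 76.7 ± 9.91 to 118 ± 19.7 CPM; 0.62 ± 0.15, 0.0075), and Neurod1 (0.59 ± 0.16, 0.0143). WT_PBS 3 reached the Het_B12 range for all 6, Cbln3 being at 136, 82.7, 168, 100.1 and 112 CPM in WT_PBS 1 to 5, and the count was 2 without Het_PBS 2 and 3 without Het_B12 3 or Het_B12 5 or after thinning. Pvalb, of fast-spiking interneurons and Purkinje cells, fell from 412 ± 53.5 to 287 ± 41.3 CPM (-0.52 ± 0.12, 0.00613), and was not called with the length offset (0.137). Of 19 inhibitory markers 2 rose and 1, Pvalb, fell. The extracellular matrix gene Reln was among the risers (from 34.2 ± 7.24 to 62.98 ± 7.25 CPM; 0.88 ± 0.17, 0.00095), and the count of 2 was 1 without Het_PBS 1, Het_PBS 2, Het_PBS 5, Het_B12 2 or Het_B12 4, 1 without Het_PBS 5 and Het_B12 1 together, and 4 by DESeq2 or with a mean count of at least 50.

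Of the 19 striatal markers 2 rose, with the dopamine receptor gene Drd2 from 13.9 ± 3.52 to 27.9 ± 6.21 CPM (1.00 ± 0.23, 0.00375). That count was 1 without Het_PBS 3, Het_B12 1 or Het_B12 5 and 1 without Het_PBS 5 and Het_B12 1 together. Of the 20 cortical excitatory markers the 1 called was Neurod2, which rose from 161 ± 21.9 to 234 ± 21 CPM (0.54 ± 0.11, 0.00241). Of these 20 markers 12 lay below 0, with a median log2 fold change of -0.02. DESeq2 and limma-voom each called 1 of them higher and 1 lower. Of 13 hippocampal markers edgeR, DESeq2 and limma-voom called 0 (1 with an unadjusted p under 0.05), and of 10 monoamine and acetylcholine markers also 0 (2 unadjusted). Of the 11 hypothalamic genes, with a median log2 fold change of -0.55, 1 was called, the imprinted gene Nnat, which fell from 527 ± 33.9 to 319 ± 29.3 CPM (-0.72 ± 0.11, 6.3e-05). Other genes with small p-values included Pura, a single-stranded DNA- and RNA-binding protein of neurons, which rose from 821 ± 134 to 1307 ± 107 CPM (0.67 ± 0.11, 7.95e-05). Sema6a, a guidance cue (1.26 ± 0.20, 9.77e-05), Mical2, an actin-oxidising enzyme (1.04 ± 0.16, 4.08e-05), and Celsr3, an atypical cadherin of axon guidance (1.01 ± 0.25, 0.00957), also rose.

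Of 24 endothelial markers tested, 7 rose, 0 fell and 20 lay above 0, with a median log2 fold change of 0.67, while edgeR, DESeq2 and limma-voom called 0 of 10 pericyte and smooth muscle markers (3 with an unadjusted p under 0.05; median 0.00). The other 4 endothelial markers lay below 0, the lowest at -1.48, and were not called. Ranges did not overlap for 6 endothelial markers that were higher and 1 that was lower, against 3.75% and 4.07% of all genes tested. In bulk tissue more cells of a type and more RNA per cell cannot be told apart, and the same holds for falls. Flt1, a receptor for vascular endothelial growth factors, stood at 23.9, 22.3, 18.6, 20.6 and 40.1 in Het_PBS 1 to 5, against 85.9, 90.3, 66.5, 59.98 and 54.8 CPM in Het_B12 1 to 5 (log2 fold change 1.53 ± 0.19, edgeR adjusted p = 3.79e-06). Het_PBS 5 was the highest of its group and still below every Het_B12 library, and all 5 wild types lay at 13.8 to 22.8 CPM. Ptprb, the endothelial tyrosine phosphatase that acts on Tek signalling, stood at 7.49, 17.9, 6.90, 9.498 and 16.7 in Het_PBS 1 to 5, against 34.1, 35.1, 38.03, 40.1 and 26.9 CPM in Het_B12 1 to 5 (1.58 ± 0.25, 8.9e-05). Its groups were separate too, and WT_PBS 3 was at 15.8 CPM.

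The organic anion transporter gene Slco1a4 rose from 13.6 ± 4.39 to 35.5 ± 7.49 CPM (1.38 ± 0.23, 0.000134). The tight junction gene Cldn5, which lies in the Tbx1 neighbourhood, rose from 5.01 ± 1.83 to 13.2 ± 2.89 CPM (1.37 ± 0.35, 0.0115), and was not called without Het_PBS 5 and Het_B12 1 together (0.0696). Kdr, the main signalling receptor for the same growth factors, stood at 9.10 ± 3.70 CPM in Het_PBS against 18.5 ± 5.62 CPM in Het_B12 with overlapping ranges (1.02 ± 0.31, 0.0371). In 8 of the 10 fits that left out a library Kdr was not called, with adjusted p up to 0.129 without Het_B12 1, and without Het_PBS 5 and Het_B12 1 together it was 0.165. The glucose transporter gene Slc2a1 rose from 20.02 ± 4.88 to 33.4 ± 7.04 CPM (0.74 ± 0.21, 0.0262), a call lost in 5 of the 10 fits, up to 0.102 without Het_PBS 4, and without Het_PBS 5 and Het_B12 1 together (0.118). The endothelial count of 7 was 4 without Het_B12 3, 4 with a mean count of at least 50 and 7 with the length offset. WT_PBS 3 reached the Het_B12 range for 2 of the 7, and no wild type did for 4.

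**Figure D5:**
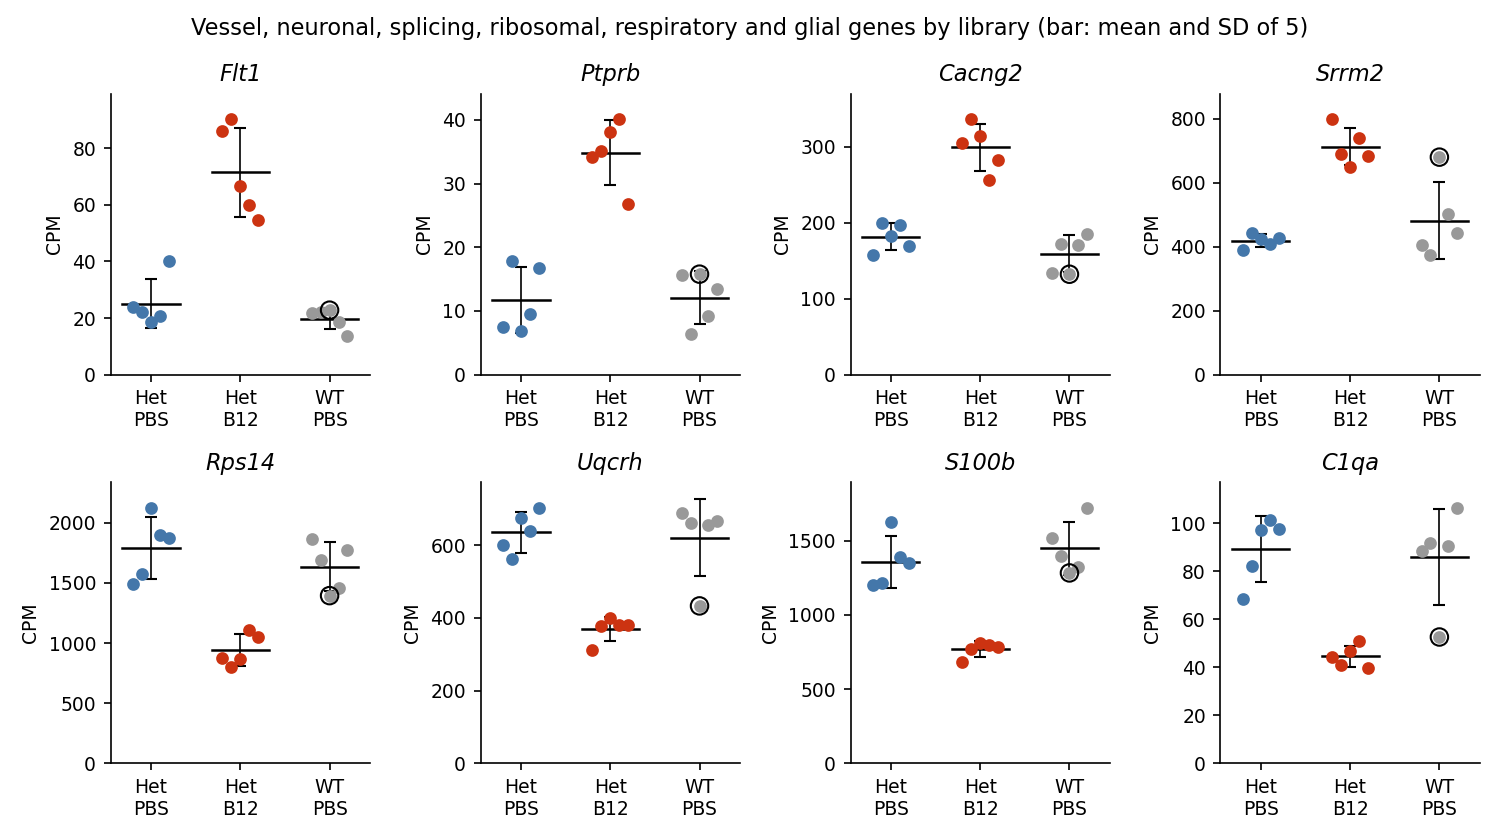
Level in CPM of 8 genes of vessels, neurons, splicing, ribosomes, respiration and glia in each library of Het_PBS (blue), Het_B12 (red) and WT_PBS (grey, WT_PBS 3 ringed), with bars at the mean and SD of 5. The Het_B12 and Het_PBS libraries do not overlap for any of the 8. WT_PBS 3 lies with Het_PBS for Flt1 (22.8 CPM), below both groups for Cacng2 (132 CPM) and with Het_B12 for Srrm2.

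Ribosomes and proteasomes make and break down proteins, and parts of both gene sets fell. Of the 47 large-subunit ribosomal protein genes 26 fell and 0 rose (median log2 fold change -0.43), and of the 33 small-subunit genes 19 fell and 0 rose (-0.48). Rps14 (chromosome 18, 60747098 to 60778546, plus strand) stood at 1489, 1571, 2127, 1896 and 1871 in Het_PBS 1 to 5, against 876, 799.7, 869, 1108 and 1049 CPM in Het_B12 1 to 5 (log2 fold change -0.93 ± 0.11, edgeR adjusted p = 2.9e-06). The lowest Het_PBS library was above the highest Het_B12 library, and the wild types, at 1862, 1693, 1394, 1459 and 1770.4 CPM, lay above Het_B12 as well. Rplp1, of the ribosomal stalk, fell from 2187 ± 198 to 1319 ± 65.1 CPM (-0.73 ± 0.10, 1.61e-05), Rpl36a fell from 520.0 ± 63.99 to 278 ± 29.9 CPM (-0.90 ± 0.13, 2.64e-05) and Rpl37 fell from 1165 ± 106 to 708 ± 47.9 CPM (-0.72 ± 0.10, 2.64e-05). Rpl7 (-0.72 ± 0.12, 7.89e-05) and Rps24 (-0.65 ± 0.12, 0.000771) also fell. These genes have near-identical pseudogenes, and their single counts are uncertain. Their transcripts are short, and with the length offset 13 and 9 were called. The count of 26 was 17 without Het_PBS 5 and Het_B12 1 together. With that offset Rplp1 was at -0.30 (0.0445) and Rpl37 at -0.45 (0.00282). In WT_PBS 3, 14 of the 26 and 12 of the 19 were in or past the Het_B12 range.

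Of 49 translation factors 7 fell, among them Eif2s2, a subunit of the initiation factor eIF2, from 620.4 ± 36.9 to 401 ± 26.5 CPM (-0.63 ± 0.11, 0.000149); DESeq2 called 11, and without Het_PBS 5 and Het_B12 1 together 2 were called. Of the 70 mitochondrial ribosomal protein genes 4 fell, close to the background, and 2 without Het_PBS 5 and Het_B12 1 together. Proteasome subunits fell in 9 of 35 cases and rose in 0 (median log2 fold change -0.19). Psma7 fell from 334 ± 26.1 to 225 ± 13.3 CPM (-0.57 ± 0.10, 0.000465), Psma4 fell from 144 ± 10.04 to 89.9 ± 13.6 CPM (-0.67 ± 0.13, 0.000865) and Psmb3 fell from 91.2 ± 18.97 to 56.8 ± 2.90 CPM (-0.68 ± 0.15, 0.00246). The count of 9 was 5 without Het_PBS 3, Het_PBS 4, Het_B12 1 or Het_B12 4, 5 without Het_PBS 5 and Het_B12 1 together, 4 without Het_PBS 1 and Het_PBS 3 together and 5 with the length offset. Nedd8, a ubiquitin-like modifier, fell from 490.4 ± 48.9 to 309 ± 10.1 CPM (-0.67 ± 0.10, 3.82e-05), or -0.37 with the length offset. The chaperone genes Hsp90aa1 (from 1719 ± 143 to 1153 ± 48.1 CPM; -0.58 ± 0.11, 0.001) and Hsp90b1 (-0.51 ± 0.12, 0.00429) were among 3 of 36 heat shock genes that fell, 5 by DESeq2.

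Part of the respiratory chain genes of both genomes fell. Of the 37 nuclear subunits of complex I 7 fell and 1 rose (median log2 fold change -0.26), and of the 40 subunits of complexes II to V 13 fell and 0 rose (-0.27). Ndufa2, of complex I, stood at 487, 448, 611, 533 and 461 in Het_PBS 1 to 5, against 285, 278, 291, 302 and 324 CPM in Het_B12 1 to 5 (log2 fold change -0.78 ± 0.11, edgeR adjusted p = 2.27e-05). Uqcrh, the hinge protein of complex III, stood at 599, 561, 674, 638 and 704 in Het_PBS 1 to 5, against 313, 377, 399, 379 and 379 CPM in Het_B12 1 to 5 (-0.78 ± 0.11, 2.52e-05). Both genes had separate ranges, and no wild type reached the Het_B12 libraries, Uqcrh being at 688, 659.9, 433, 655 and 668 CPM. Cox7a2, of complex IV, fell from 642 ± 62.9 to 394 ± 22.3 CPM (-0.70 ± 0.11, 8.9e-05), Ndufc1 fell from 278 ± 20.7 to 190.5 ± 5.63 CPM (-0.55 ± 0.10, 0.000671) and Ndufb8 fell from 505 ± 24.8 to 353 ± 23.7 CPM (-0.52 ± 0.10, 0.00149). Atp5k, of the ATP synthase, fell from 692 ± 68.3 to 448 ± 47.6 CPM (-0.63 ± 0.10, 0.000135) and was not called with the length offset (0.194), under which 5 and 6 of these nuclear genes were lower. With that offset Ndufa2 was at -0.38 (0.0244), Uqcrh at -0.48 (0.00287) and Cox7a2 at -0.35 (0.0277). The complex I count of 7 was 4 without Het_PBS 5 and Het_B12 1 together, 11 by DESeq2, 13 without WT_PBS 3 and 14 in the fit of the 10 heterozygous libraries alone. Of 10 mitochondrially encoded genes all lay below 0 and 5 fell.

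mt-Co1, a catalytic subunit of complex IV encoded in mitochondria, stood at 2934, 2826, 3076, 3348 and 4146 in Het_PBS 1 to 5, against 1967, 2109, 2045, 1870.3 and 1972 CPM in Het_B12 1 to 5 (log2 fold change -0.71 ± 0.11, edgeR adjusted p = 5.28e-05). Het_PBS 5 was the highest library, and WT_PBS 3, at 2156 CPM, lay near Het_B12. mt-Nd5 (-0.49 ± 0.10, 0.00246) and mt-Nd1 (-0.49 ± 0.11, 0.00315) fell as well, mt-Nd1 not with the length offset (0.124). The mitochondrial count of 5 was 3 without Het_PBS 3, Het_PBS 4, Het_PBS 5, Het_B12 1 or Het_B12 5, and 2 with the offset. Of the 35 genes of the tricarboxylic acid cycle and malate-aspartate shuttle, which sit upstream of the chain, 3 rose and 0 fell. As a set they leaned the other way, with 21 below 0 and a median log2 fold change of -0.11. DESeq2 called 4 higher and 3 lower. The count of 3 that rose was 1 without Het_PBS 3 or Het_B12 2 and 1 without Het_PBS 5 and Het_B12 1 together.

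Of 29 astrocyte markers tested 17 fell and 0 rose, all 29 lay below 0, and the median log2 fold change was -0.46. S100b, a calcium-binding protein, stood at 1201, 1212, 1627, 1392 and 1352 in Het_PBS 1 to 5, against 681, 771, 812, 798 and 786 CPM in Het_B12 1 to 5 (log2 fold change -0.82 ± 0.10, edgeR adjusted p = 3.87e-06). The wild types were at 1518, 1396, 1283, 1322 and 1724 CPM, so that Het_B12 was below both other groups. Ndrg2 fell from 1903 ± 300.1 to 1107 ± 112 CPM (-0.78 ± 0.11, 2.52e-05), and Dbi, the acyl-CoA-binding protein of glia, fell from 912 ± 56.8 to 551 ± 19.04 CPM (-0.73 ± 0.10, 2.14e-05), or -0.37 with the length offset. The glutamate uptake genes Slc1a2 (from 2755 ± 192 to 2011 ± 152 CPM; -0.45 ± 0.10, 0.00348) and Slc1a3 (-0.46 ± 0.12, 0.00999), and Glul, glutamine synthetase (from 1909 ± 404 to 1353 ± 132 CPM; -0.50 ± 0.12, 0.00953), fell in the same libraries. Glul was not called without Het_PBS 5 (0.0520). Aldoc (-0.55 ± 0.12, 0.00257) and Clu (-0.51 ± 0.10, 0.001) fell as well. The count of 17 was also 17 with the length offset and was 10 without Het_PBS 5 and Het_B12 1 together, where Slc1a3 (0.0956), Glul (0.0799) and Aldoc (0.0548) were not called. WT_PBS 3 reached the Het_B12 range for 12 of the 17.

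Metallothioneins bind zinc and copper and are transcribed when the metal-sensing factor Mtf1 binds metal response elements. Mt1 and Mt2, neighbouring genes on chromosome 8 that fell together, are shown here with the 250 bases before their RefSeq gene starts (GRCm38.p6, plus strand, chr8:94178839-94179088 and chr8:94172368-94172617). Capitals mark each match to TGCACNC or TGCGCNC, the core letters of that element, searched on both strands:
Mt1: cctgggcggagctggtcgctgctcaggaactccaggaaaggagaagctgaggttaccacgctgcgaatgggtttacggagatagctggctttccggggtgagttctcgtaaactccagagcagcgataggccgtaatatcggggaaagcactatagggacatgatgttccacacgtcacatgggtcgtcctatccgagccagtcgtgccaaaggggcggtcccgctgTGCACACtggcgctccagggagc
Mt2: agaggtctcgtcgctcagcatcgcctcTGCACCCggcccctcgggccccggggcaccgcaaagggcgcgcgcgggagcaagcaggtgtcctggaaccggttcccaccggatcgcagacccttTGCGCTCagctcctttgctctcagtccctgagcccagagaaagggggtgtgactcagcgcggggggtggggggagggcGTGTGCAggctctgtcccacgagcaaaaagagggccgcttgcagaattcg
Within these windows Mt1 held 1 match and Mt2 held 3, the last on the opposite strand. Of 32851 RefSeq promoters searched over the same length, 21.4% held at least 1 match and 1.26% at least 3. A match is only a run of letters. GENCODE starts Mt2 further downstream, at 94172664, so the window need not hold all of the promoter that most transcripts use. The Mt1 window was likewise set by a RefSeq gene start alone and need not hold all of its promoter. Matches beyond the windows were not counted, so the counts do not rank the promoters of these genes.

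Mt1 stood at 1142, 1139, 1726, 1352 and 1859 in Het_PBS 1 to 5, against 744, 757, 802, 759.5 and 826 CPM in Het_B12 1 to 5 (log2 fold change -0.89 ± 0.13, edgeR adjusted p = 2.14e-05). Mt2 stood at 504, 555, 750.3, 553 and 1158 in Het_PBS 1 to 5, against 338, 414, 323, 302 and 334 CPM in Het_B12 1 to 5 (-1.04 ± 0.16, 4.08e-05). The Het_B12 libraries were close to each other, Het_PBS 5 was the highest library for both genes, and WT_PBS 3 lay near Het_B12 with 829 CPM of Mt1 and 369 CPM of Mt2. With the length offset Mt2 was at -0.59 (0.00423). Mt3, the brain form, named outside the rule as the remaining neighbour, fell from 229.6 ± 28.9 to 154 ± 34.7 CPM (-0.57 ± 0.15, 0.0109), but not without Het_B12 4 (0.0502) or with the length offset (0.51). Among 39 glutathione and antioxidant genes 9 fell and 0 rose. Of 12 S100 genes 7 fell, which besides S100b were S100a1 (-0.70 ± 0.12, 0.00032), S100a8, S100a9, S100a13 (-0.63 ± 0.17), S100a10 (-0.70 ± 0.20) and S100a16 (-0.43 ± 0.13). The last 3 had adjusted p of 0.0174, 0.0284 and 0.0345. They were not called in 2, 3 and 6 of the 10 fits that left out a library, up to 0.0633 without Het_B12 5, 0.146 without Het_PBS 5 and 0.0965 without Het_B12 1, and the last pair were not called without Het_PBS 5 and Het_B12 1 together (0.286 and 0.156). With the length offset 3 of the 7 were called, S100a1 not among them (0.0629), and after thinning 4.

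Microglia markers fell in 8 of 26 cases and rose in 0, with a median log2 fold change of -0.46. Ctss, a lysosomal protease of microglia, stood at 98.7, 105, 141, 116 and 187 in Het_PBS 1 to 5, against 55.01, 53.4, 61.5, 63.6 and 63.5 CPM in Het_B12 1 to 5 (log2 fold change -1.12 ± 0.16, edgeR adjusted p = 2.14e-05). C1qa, a chain of the complement starter C1q, stood at 68.3, 82.02, 97.1, 101 and 97.5 in Het_PBS 1 to 5, against 44.1, 40.8, 46.9, 50.8 and 39.8 CPM in Het_B12 1 to 5 (-1.0 ± 0.15, 5.03e-05). Both had separate ranges. WT_PBS 3 was at 63.1 CPM of Ctss, within the Het_B12 range, and at 52.6 CPM of C1qa, just above it. C1qb (-0.80 ± 0.16, 0.001) and the fractalkine receptor gene Cx3cr1 (from 157 ± 11.96 to 106 ± 10.9 CPM; -0.57 ± 0.12, 0.00184) fell as well.

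Of 7 leukocyte markers tested 3 fell and 0 rose, with a median log2 fold change of -1.07, and none of the 3 was tested with a mean count of at least 50. S100a8, a calprotectin subunit of neutrophils, stood at 7.02, 9.95, 12.1, 10.7 and 44.2 in Het_PBS 1 to 5, against 0.909, 2.15, 0.679, 0.795 and 1.74 CPM in Het_B12 1 to 5 (log2 fold change -3.63 ± 0.58, edgeR adjusted p = 7.89e-05), so that Het_PBS 5 alone held most of the Het_PBS sum. In Het_B12 1, Het_B12 3 and Het_B12 4 S100a8 lay under the floor of 3 counts, and S100a9 had a Het_B12 mean near that floor. The fitted fold changes of both genes depend on few reads. S100a9 fell from 10.9 ± 7.58 to 1.498 ± 1.53 CPM (-2.75 ± 0.54, 0.00102) with overlapping ranges, and the lysozyme gene Lyz2 fell from 15 ± 5.46 to 6.53 ± 1.46 CPM (-1.18 ± 0.30, 0.0121), a call lost without Het_PBS 5 at a log2 fold change of -0.96 (0.0551) and lost without Het_PBS 5 and Het_B12 1 together (0.0751). Hbb-bt, an adult β-globin of red cells, stood at 279, 79.2, 574, 106 and 144 in Het_PBS 1 to 5, against 42.3, 43.7, 77.4, 72.3 and 50.6 CPM in Het_B12 1 to 5 (-2.04 ± 0.31, 5.28e-05). Het_PBS 1 and Het_PBS 3 held the highest globin levels, and Het_PBS 2 lay just above the highest Het_B12 library. Hbb-bs (-1.71 ± 0.27, 7.87e-05), Hba-a1 (-1.49 ± 0.31, 0.00206) and Hba-a2 (-1.46 ± 0.30, 0.00181) fell, but without Het_PBS 1 and Het_PBS 3 together both α-globins were not called (0.422 and 0.361). Without those 2 libraries 2 of the 5 erythroid calls were made. Globin genes have near-identical relatives. All haemoglobin genes together held 0.216% ± 0.167 of counts in Het_PBS against 0.0757% ± 0.0239 in Het_B12 (exact two-sided permutation p = 0.0317, adjusted over 6 measures 0.0476; SD, n = 5). The exact p was 0.0635 when any of Het_PBS 1, Het_PBS 3, Het_PBS 5, Het_B12 1, Het_B12 2 or Het_B12 5 was left out.

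Of 20 meningeal and fibroblast markers 5 fell and 0 rose (median log2 fold change -0.53). The matrix protein gene Mgp fell from 56.9 ± 16.3 to 25.5 ± 9.31 CPM (-1.15 ± 0.22, 0.000675), and Ptgds, a prostaglandin synthase of leptomeninges, fell from 2904 ± 385 to 1818 ± 245 CPM (-0.68 ± 0.14, 0.0016). That count was 2 without Het_PBS 4 or Het_B12 4, and 3 without Het_PBS 5, Het_B12 2, Het_B12 3 or Het_B12 5, 3 with a mean count of at least 50 and 8 after thinning. Of 30 oligodendrocyte and myelin markers 5 fell, with Mobp from 1185 ± 176 to 739 ± 51.9 CPM (-0.68 ± 0.13, 0.000727) and Bcas1 from 282 ± 14.5 to 195 ± 29.2 CPM (-0.53 ± 0.12, 0.00482), and the count was 3 without Het_B12 1 and 2 without Het_PBS 5 and Het_B12 1 together. Of these 30 markers 10 lay above 0, and the median log2 fold change was -0.13. By edgeR 0 of 16 oligodendrocyte precursor, 17 choroid plexus and 8 ependymal markers were called, with 1, 3 and 2 at an unadjusted p under 0.05. DESeq2 and limma-voom each called 1 choroid plexus marker. Summed levels of the endothelial list ran from 478 to 632 CPM in Het_PBS and from 643 to 818 CPM in Het_B12, and those of the leukocyte list from 79.5 to 166 and from 56.8 to 71.8 CPM. How far amounts of blood, meninges or vessels in the dissected tissue differed between the groups was not tested.

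Genes that take up, carry and use vitamin B12 were seldom called. Of 18 tested, 0 rose and 1 fell, with a median log2 fold change of 0.00, and 1 of 18 is close to the background of 3.79%. The gene that fell was Prdx1, a peroxiredoxin listed because it adjoins Mmachc, a cobalamin-processing gene. It stood at 202, 155, 203, 209 and 197 in Het_PBS 1 to 5, against 131, 128, 132, 109.6 and 107 CPM in Het_B12 1 to 5 (log2 fold change -0.67 ± 0.14, edgeR adjusted p = 0.00175), with separate ranges. Mut, the mitochondrial cobalamin enzyme, stood at 36.5 ± 9.85 CPM in Het_PBS against 27.7 ± 3.64 CPM in Het_B12 (-0.38 ± 0.18, 0.208), and overlaps Cenpq on the opposite strand. Hcfc1 (0.30 ± 0.16, 0.261) and Amn (-0.43 ± 0.27, 0.377) were not called either. The next 4 genes are named for their roles, outside the rule.

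Mtr, methionine synthase, stood at 10.8, 10.8, 12.5, 10.3 and 11.96 in Het_PBS 1 to 5, against 9.55, 14.7, 9.85, 11.9 and 10.1 CPM in Het_B12 1 to 5 (log2 fold change -0.00 ± 0.28, edgeR adjusted p = 0.999). The ranges overlapped throughout. Mtrr stood at 9.38 ± 2.11 CPM in Het_PBS against 10.2 ± 1.499 CPM in Het_B12, Cd320 at 14.2 ± 4.12 CPM in Het_PBS against 14.1 ± 2.13 CPM in Het_B12 and Tcn2 at 7.48 ± 2.01 CPM in Het_PBS against 9.29 ± 2.06 CPM in Het_B12. Their log2 fold changes were 0.10 ± 0.33, -0.00 ± 0.25 and 0.31 ± 0.31, with adjusted p of 0.902, 0.995 and 0.611. With standard errors of 0.25 to 0.33 on the log2 scale, changes of that size would not have been called at this depth.

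Of 24 genes of the folate and methionine cycle edgeR, DESeq2 and limma-voom called 0, with 3 at an unadjusted p under 0.05 (median log2 fold change -0.13). Those with the smallest p-values were Folr1, a folate receptor of the choroid plexus (-0.91 ± 0.36, 0.116), Mtfmt (-0.86 ± 0.39, 0.193), Ahcyl2 (0.30 ± 0.14, 0.202) and Ahcyl1 (-0.20 ± 0.12, 0.322). Of 34 genes of propionate, branched-chain and fatty acid breakdown 2 rose and 2 fell. Etfb, which passes electrons from acyl-CoA dehydrogenases, fell from 85.2 ± 8.40 to 55.1 ± 10.5 CPM (-0.63 ± 0.13, 0.00217), but not with the length offset (0.125). Hadha, of mitochondrial β-oxidation, fell (-0.45 ± 0.13, 0.0268), and Cpt1c (0.64 ± 0.20, 0.043) and Mccc1 (0.89 ± 0.28, 0.0431) rose. These 3 calls were absent from 6, 9 and 7 of the 10 fits that left out a library, with adjusted p up to 0.085 without Het_B12 3, 0.125 without Het_PBS 3 and 0.135 without Het_B12 1, and none of the 3 was called without Het_PBS 5 and Het_B12 1 together (0.0591, 0.1001 and 0.0811). Hadha overlaps Garem2 on the opposite strand.

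Of 27 tested genes in the neighbourhood of Tbx1 on chromosome 16, 2 rose and 0 fell (median log2 fold change 0.17). Besides Cldn5 this was Pi4ka, a phosphatidylinositol kinase gene, which rose from 126 ± 10.9 to 166 ± 11.4 CPM (0.39 ± 0.12, 0.0365), a call absent from 8 of the 10 fits that left out a library, up to 0.101 without Het_B12 1, and without Het_PBS 5 and Het_B12 1 together (0.179). It overlaps Tmem191c on the opposite strand. By edgeR, DESeq2 and limma-voom 0 of 23 immediate early genes were called (2 with an unadjusted p under 0.05), and 1 of 21 circadian genes rose, the clock gene Per3 (from 22.2 ± 4.98 to 39.9 ± 3.75 CPM; 0.84 ± 0.19, 0.00478). Of 16 glucocorticoid-responsive genes Fam107a fell (from 209 ± 56.1 to 126 ± 28.03 CPM; -0.72 ± 0.16, 0.0028), with overlapping ranges, and was not called without Het_PBS 5 and Het_B12 1 together (0.0579). Replication-dependent histone genes, whose messages mostly lack poly(A), had a median of -0.58 over 12 tested; edgeR called 0 (5 with an unadjusted p under 0.05), DESeq2 2 and limma-voom 1.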

How the data were processed

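Brain RNA of 15 mouse libraries was read by QuantSeq. The authors deposited raw read counts per gene; STAR, HTSeq, edgeR and the build mm10 are named per the submitters' processing notes. Their versions, the annotation, the strand setting and duplicate removal were not given there. The labels name Qiazol and RNeasy without saying which library had which. Groups came from the sample titles. Of 30386 identifiers, 9918 were at 0 throughout and 30348 matched GENCODE M21, which gave coordinates (GRCm38) and the length of the longest transcript of each gene. Counts of 3 reads or fewer are at the detection floor, and floors cover counting error only.

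Genes kept by filterByExpr were scaled by TMM in edgeR 4.0.16 (R 4.3.3). All 15 libraries entered 1 quasi-likelihood fit with a mean for each group and without covariates (12 residual degrees of freedom, biological coefficient of variation 0.181), in which Het_B12 was tested against Het_PBS. Benjamini-Hochberg adjusted p-values under 0.05 were called; bracketed pairs give the log2 fold change with its SE and this adjusted p, and levels are mean ± SD of 5 libraries in TMM-normalised CPM. Shares of counts were compared by exact two-sided permutation. Scripts were tested on simulated data. The lowest chi-square per degree of freedom between libraries of 1 group was 3.03, and that of Het_PBS 5 against Het_B12 1 was 10.3, so none was treated as a duplicate.

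Members, gene lists and alternatives were chosen with earlier results of these data known. The genes named are the 15 smallest p-values and, from 50 CPM, the 12 largest folds in each direction; from each list up to 4 members, by p; passing members of the vitamin B12, folate, propionate, DNA methylation and S100 lists; Tbx1; and the 3 genes most like the first component in each direction. Not all genes selected are printed. Alternatives were other scalings, DESeq2 1.42.0, limma-voom (limma 3.58.1), other filters, only the heterozygous libraries, a replicate block, thinned libraries, a length offset and fits without libraries.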

Additional observations from a re-analysis of the deposited data

Results flagged for a closer look

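In groups of 5 libraries of the genes named, 14 of 256 highest or lowest libraries had a gap to the nearest library over 0.71 of the group's range, where chance gives about 1 in 20. Het_PBS 5 held 5 of them, all high: Flt1 at 40.1 CPM (the others 18.6 to 23.9), Rps24 at 1294 (961.7 to 998.6), Glul at 2589 (1599 to 1886), S100a8 at 44.2 (7.02 to 12.1) and S100a10 at 52.0 (26.02 to 31.5). Het_B12 1 held 4: Mroh2a at 4.09 CPM (0 to 0.349) and Dot1l at 78.2 (54.8 to 60.8) were high, Uqcrh at 313 (377 to 399) and Cox7a2 at 356 (399.9 to 412.6) low. The others were Rplp1 at 1847 CPM in Het_PBS 1 (2207 to 2344), Miat at 46.6 in Het_PBS 3 (27.5 to 31.4), Tra2a at 57.0 in Het_PBS 4 (84.4 to 87.0), Prdx1 at 155 in Het_PBS 2 (197 to 209) and Etfb at 73.5 in Het_B12 4 (47.7 to 53.0).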

How the results depend on the processing

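The 851 calls (407 higher, 444 lower) became 549 to 743 in fits without 1 library of either group, fewest without Het_B12 1 and most without Het_PBS 2, with 234 to 347 higher and 315 to 412 lower. Without Het_PBS 5 and Het_B12 1 together, which share a label number, 437 passed (183 and 254), 410 of them among the 851. Without Het_PBS 1 and Het_PBS 3 together, chosen after seeing the data, 509 passed (223 and 286). With the replicate number as a block 830 passed (390 and 440). Same-numbered libraries correlated at -0.091 to 0.037 in their deviations, and 2 of 5 correlated best with their own number, so the numbers were not taken as a pairing. Under DESeq2 size factors, scaling without mitochondrial, Gm42418 and haemoglobin genes, no filter, a mean count of 50, DESeq2, limma-voom, the heterozygous libraries alone, thinning and the length offset, 648 to 1100 passed. The median of all genes moved by under 0.03 (log2) with scaling.

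Without 1 library the haemoglobin share differed by -0.176 to -0.0738 percentage points, past the threshold in 4 of 10 fits, and the mitochondrial share by -1.77 to -0.860, past it without Het_PBS 1 (exact permutation p = 0.0317). Of 122 genes named, 29 were called and lost their call under at least 1 alternative. The other 93 lost no call, but they include genes that were not called and had none to lose. Reversals were in genes near 0 that were not called. Mtr was at 0.0045 with the replicate block, 0.0686 without the pair, 0.0247 without Het_PBS 1 and 3, and -0.117 to 0.0484 without 1 library. Mtrr was at -0.0607 without the pair and -0.0214 without Het_PBS 1 and 3. Cd320 was at 0.0291 by limma-voom, 0.0212 with the block, 0.0048 without the pair, 0.0578 with the length offset, 0.0200 after thinning and -0.143 to 0.141 without 1 library. Depth limits genes near 10 CPM, such as Mtr.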
